A study of Mus musculus with 5 samples.

Results

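The leukotriene genes described here are 8 genes of synthesis and reception: Alox5, Alox5ap, Lta4h and Ltc4s on the synthesis side, and the receptors Cysltr1, Cysltr2, Ltb4r1 and Ltb4r2. The set was chosen by role in the pathway, with its EXO-HP against EXO-STD values on these arrays already known. The genes were found on the array by gene name among the non-control probes, which gave 9 of 39429 probes, 1 per gene except for Cysltr1, which had 2. Each probe was printed as 1 spot per array. MIN6 cells, a mouse insulinoma line that secretes insulin and stands in for beta cells, gave 5 samples, each measured on a 1-colour Agilent mouse expression array. Before RNA extraction the cells had received exosomes, small vesicles that cells release, collected by ultracentrifugation from medium in which dissected mouse muscle had been kept. In 2 samples, called EXO-STD, the muscle came from mice on a standard diet, and in 3 samples, called EXO-HP, it came from mice on a high fat diet. All 5 samples therefore received muscle exosomes. Mouse strain and age, exosome dose and length of exposure were not stated in the labels. Although titled biological replicates, the samples are not said to come from separate cultures or muscle donors, and any p-value measures only the spread between these samples, which may be technical.

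Leukotrienes are lipid mediators made from arachidonic acid. 5-lipoxygenase (Alox5), helped by its activating protein at the nuclear membrane (Alox5ap), makes the unstable intermediate LTA4. LTA4 hydrolase (Lta4h) turns it into LTB4, which attracts neutrophils through the receptors BLT1 (Ltb4r1) and BLT2 (Ltb4r2). LTC4 synthase (Ltc4s) instead joins it to glutathione, which starts the cysteinyl leukotrienes, whose receptors are Cysltr1 and Cysltr2. Synthesis is best known in myeloid cells and mast cells, while Lta4h is expressed widely.

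The results turn on the probes of Alox5 and Cysltr1, because these were near the detection limit and because the Cysltr1 probes gave different readings. A stretch of 30 bases of each 60-base probe is shown, 5′ to 3′, as in the deposited array tables, with the hexamer AATAAA, the usual polyadenylation signal, in capitals.
Alox5 probe, bases 1 to 30: tttatgcttcctccaattgcttgcatagag
Cysltr1 downstream probe, bases 25 to 54: tgtttaaagcatAATAAAgagaggactcta
Cysltr1 upstream probe, bases 1 to 30: cagcttggttgtgactaaaatatgatattc
Of the 9 probes, only the Cysltr1 downstream probe held AATAAA, and none held its reverse complement TTTATT. Over all non-control probes of the array, 12.6% held AATAAA and 4.03% held TTTATT. A match of letters describes the probe and is not evidence of a used signal.

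The array design places the probes on build mm9. The Cysltr1 downstream probe lies at chrX:103771856-103771915 and the upstream probe at chrX:103772044-103772103, both on the minus strand and 128 bases apart. The Alox5 probe lies at chr6:116360326-116360385 on the minus strand. The probe of Alox5ap is at chr5:150099347-150099406 (plus strand), that of Lta4h at chr10:92947503-92947562 (plus) and that of Ltc4s at chr11:50049974-50050031 (minus). The Cysltr2 probe is at chr14:73429010-73429069 (minus). The probes of Ltb4r2, at chr14:56381569-56381628, and of Ltb4r1, at chr14:56387175-56387234, are both on the plus strand and 5546 bases apart. Exon and UTR annotation of this build was not used here.

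Precision is limited by the number of arrays. Spots well above background made up 71.8% to 73.4% of the EXO-STD arrays and 74.0% to 91.6% of the EXO-HP arrays, and no spot was saturated. Per the scanner headers, the EXO-STD arrays and EXO-HP replicate 1 shared 1 slide and scan, and EXO-HP replicates 2 and 3 shared another. Among the 3195 dimmest of the tested probes, the median normalised log2 signal stood above the EXO-STD mean by 0.23 in EXO-HP replicate 1, by 1.53 in replicate 2 and by 0.74 in replicate 3. Probes well above background on both arrays of the second slide and on none of the first made up 5.57% of all probes. These values bear on every dim probe below, Alox5, Cysltr1, Cysltr2, Mgst2 and the secreted phospholipases included, and their part in those differences was not tested.

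Detection came first, by the scanner's own flag for a spot well above background. 5 of the 8 genes, Alox5ap, Lta4h, Ltc4s, Ltb4r1 and Ltb4r2, were well above background on all 5 arrays, as were 68.6% of all probes. Alox5 was well above background on 0 of 2 EXO-STD arrays and on 2 of 3 EXO-HP arrays, replicates 2 and 3, which are the arrays of the second slide. Of all probes, 5.9% showed the same counts. The Cysltr1 downstream probe was well above background on 0 of 2 EXO-STD arrays and on 3 of 3 EXO-HP arrays, a pattern of 1.29% of all probes. The Cysltr1 upstream probe was well above background on none of the 5 arrays. Cysltr2 missed the flag only on EXO-STD replicate 2. With the scanner's weaker flag, a positive signal significantly above background, Cysltr2 was detected on all 5 arrays, Alox5 also on EXO-HP replicate 1, and the Cysltr1 upstream probe on EXO-HP replicate 2 alone.

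**Figure D1:**
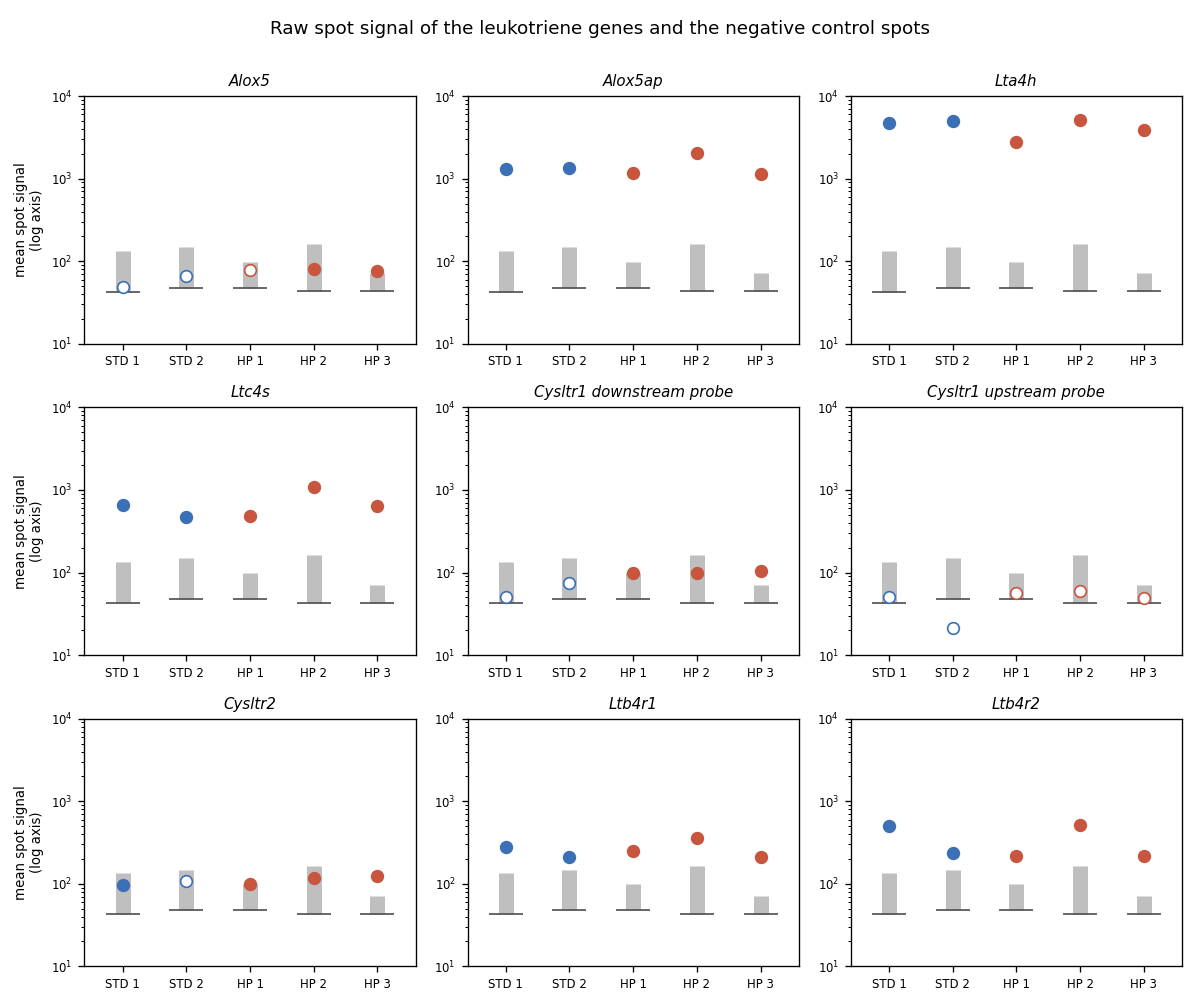
Mean spot signal before background subtraction (scanner intensity units, log axis) of the 9 probes on each of the 5 arrays. Open circles are spots not well above background, and each grey bar runs from the median (dash) to the highest of the 153 negative control spots of that array. The Alox5, Cysltr1 and Cysltr2 spots sit within or just above the grey bars, except the upstream Cysltr1 spot of EXO-STD replicate 2, which lies below, while Lta4h reads between 2789 and 5128.

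The differences between EXO-HP and EXO-STD below are a description without a test, since this contrast was known when the genes were chosen. Normalised log2 signal is the log2 processed signal minus the array's 75th percentile, so 0 is that percentile. With 9 probes, 6 had the higher mean in EXO-HP and 3 the lower. In 3 of the 8 probes that passed the filter on dim probes, every EXO-HP array lay above every EXO-STD array (Alox5, the Cysltr1 downstream probe and Cysltr2), a pattern of 15.1% of the 31943 tested probes. All 3 passed that filter through the EXO-HP arrays alone, which favours this pattern. For Alox5 and the Cysltr1 downstream probe the EXO-STD values are also surrogates, so the count is no support for a difference. None of the 8 lay wholly below, a pattern of 2.76% of tested probes. The median difference was 0.30 over the 9 leukotriene probes and 0.07 over all tested probes, of which 62.8% had the higher mean in EXO-HP.

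Of the synthesis enzymes, Lta4h gave the highest processed signal on every array and Alox5 the lowest. These are signals of different probes, not amounts of RNA. The Lta4h processed signal was 4666 and 4865 in EXO-STD and 2706, 4919 and 3882 in EXO-HP. After scaling, its log2 signal was 1.28 and 1.08 in EXO-STD and 0.68, 1.11 and 0.90 in EXO-HP. EXO-HP replicate 2 lay between the EXO-STD arrays, and the other EXO-HP arrays lay below them. The group means of 1.18 ± 0.14 (SD, n = 2) for EXO-STD and 0.90 ± 0.22 (SD, n = 3) for EXO-HP gave a difference of -0.28 ± 0.22 (SE).

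Alox5ap, which presents arachidonic acid to 5-lipoxygenase, read 1109 and 1120 in EXO-STD and 946, 1866 and 1051 in EXO-HP as processed signal. Its log2 signal was -0.79 and -1.04 in EXO-STD and -0.84, -0.28 and -0.99 in EXO-HP. One array, EXO-HP replicate 2, stood above the rest, and the other EXO-HP arrays lay within the EXO-STD range. The difference was 0.21 ± 0.28 (SE), smaller than its error, and without EXO-HP replicate 2 it was 0.0028.

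Ltc4s, the enzyme that commits LTA4 to the cysteinyl branch, read 734 and 482 in EXO-STD and 545, 1178 and 707 in EXO-HP. Its log2 signal was -1.39 and -2.25 in EXO-STD and -1.63, -0.95 and -1.56 in EXO-HP. Here too EXO-HP replicate 2 was the highest array, and the remaining EXO-HP arrays fell between the EXO-STD arrays. The difference of 0.44 ± 0.36 (SE) moved with the EXO-STD array left out. It was 0.87 without replicate 1 and 0.0090 without replicate 2.

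Alox5 itself was dim on every array. Its mean spot signal before background subtraction was 49.4 and 65.8 in EXO-STD and 79.4, 80.7 and 77.1 in EXO-HP. Of the 153 negative control spots of an array, 30 and 15 were at least as bright as Alox5 in EXO-STD, and 1, 1 and 0 in EXO-HP. The spot thus stood at the upper end of the negative controls in EXO-HP and inside their range in EXO-STD. The processed signal was 4.96 and 7.81 in EXO-STD, both surrogate values that the scanner software enters where a spot is not above background, and 19.3, 29.3 and 28.9 in EXO-HP. On the log2 scale these were -8.60 and -8.20 against -6.45, -6.28 and -6.17. The groups did not overlap, and their means, -8.40 ± 0.28 (SD, n = 2) and -6.30 ± 0.14 (SD, n = 3), differed by 2.10 ± 0.22 (SE). Since the EXO-STD values are surrogates, the size of this difference is not a measured fold. Set against the lowest signal well above background on the EXO-STD arrays, the EXO-HP mean was no higher, and no fold is given. On the first slide the one EXO-HP array was not well above background for Alox5 either.

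Of the cysteinyl leukotriene receptors, Cysltr1 gave readings that differed between its probes. The downstream probe had a mean signal before subtraction of 50.5 and 75.2 in EXO-STD and of 99.6, 98.3 and 106 in EXO-HP. In EXO-STD 26 and 11 of the negative controls were at least as bright, and in EXO-HP 0, 1 and 0. The processed signal was 5.39 and 9.17 in EXO-STD, again surrogates, and 41.3, 43.7 and 49.9 in EXO-HP. On the log2 scale the values were -8.48 and -7.97 against -5.36, -5.70 and -5.38, so that all EXO-HP arrays lay above both EXO-STD arrays. The means of -8.22 ± 0.36 (SD, n = 2) and -5.48 ± 0.19 (SD, n = 3) differed by 2.74 ± 0.25 (SE). Measured against the lowest signal well above background on the EXO-STD arrays (mean -6.30), the EXO-HP mean was 1.77-fold higher. That value sets the EXO-HP mean against the higher, on each EXO-STD array, of that lowest signal and the probe's own. It is not a lower bound, since a spot can miss the flag while reading above that lowest signal. Cysltr2 did so on EXO-STD replicate 2, at -5.47. The 1.77-fold value has no error of its own and applies to this background treatment. On the first slide alone, EXO-HP replicate 1 was well above background and the EXO-STD arrays were not, and against surrogates the size of that difference is not a measured fold.

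The upstream probe of Cysltr1 was too dim to show a difference. Its mean signal before subtraction was 51.0 and 21.1 in EXO-STD and 56.6, 60.0 and 48.9 in EXO-HP. On EXO-STD replicate 2 all 153 negative controls were at least as bright as this spot. Its processed signal, between 2.99 and 7.70, was a surrogate on all arrays but EXO-HP replicate 2. The log2 values were -8.74 and -8.22 in EXO-STD and -8.69, -8.39 and -9.44 in EXO-HP, a difference of -0.36 ± 0.40 (SE) between 2 groups that were both below the detection flag. Whether it differed between the groups was not detectable on these arrays.

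Cysltr2, the second receptor of cysteinyl leukotrienes, was dim and passed the detection flag on 4 of the 5 arrays. Its processed signal was 57.4 and 52.0 in EXO-STD and 55.1, 69.1 and 74.3 in EXO-HP. The log2 signal was -5.07 and -5.47 in EXO-STD and -4.94, -5.04 and -4.81 in EXO-HP. The lowest EXO-HP array lay just above the highest EXO-STD array, and the difference was 0.34 ± 0.22 (SE). It was 0.54 without EXO-STD replicate 1, 0.14 without EXO-STD replicate 2 and, with the sign turned, -0.14 after quantile normalisation.

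**Figure D2:**
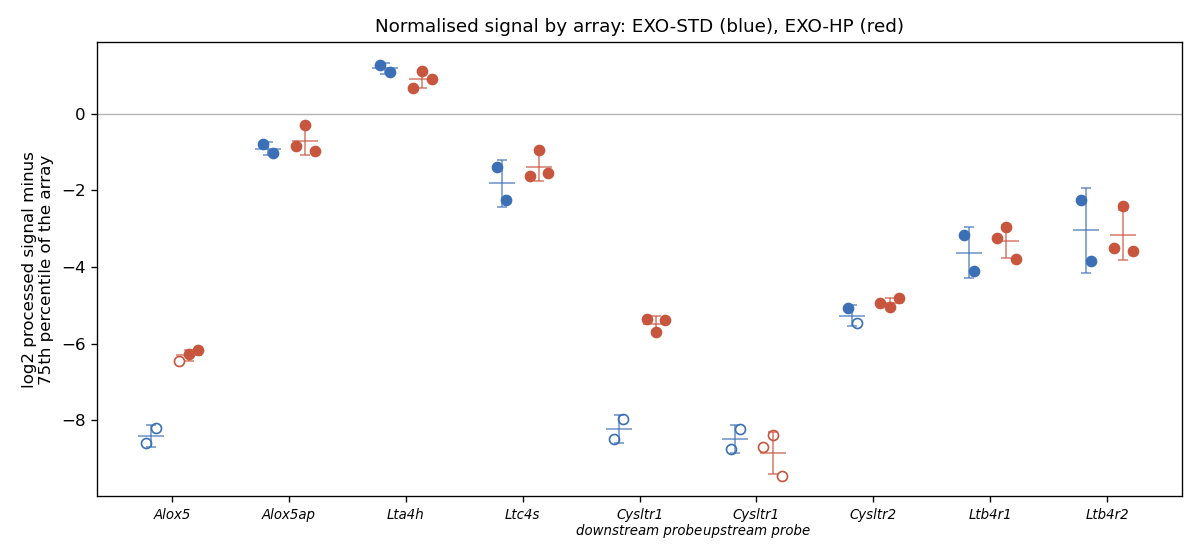
Normalised log2 signal (log2 processed signal minus the array's 75th percentile) of the 9 probes by array. Points are arrays, open where the spot was not well above background, and bars show the group mean ± SD (EXO-STD n = 2, EXO-HP n = 3). The groups overlap for Alox5ap, Lta4h, Ltc4s, Ltb4r1 and Ltb4r2, and are far apart for Alox5 and the Cysltr1 downstream probe, whose EXO-STD points are all open.

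The LTB4 receptors were detected on every array, with spreads within the groups that exceeded the difference between them. Ltb4r1, the high-affinity receptor, read 216 and 134 in EXO-STD and 177, 295 and 151 in EXO-HP as processed signal. Its log2 signal was -3.16 and -4.10 in EXO-STD and -3.25, -2.95 and -3.78 in EXO-HP. The EXO-STD arrays lay on either side of EXO-HP replicates 1 and 3. The difference of 0.30 ± 0.39 (SE) was 0.77 without EXO-STD replicate 1 and -0.17 without EXO-STD replicate 2.

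Ltb4r2, the low-affinity receptor, had the widest spread of the 5 genes detected on all arrays. Its processed signal was 403 and 161 in EXO-STD and 149, 429 and 173 in EXO-HP. EXO-STD replicate 1 and EXO-HP replicate 2 read high and the other 3 arrays low, whichever exosomes the cells had received. The log2 signal was -2.25 and -3.83 in EXO-STD and -3.50, -2.40 and -3.59 in EXO-HP, a difference of -0.12 ± 0.59 (SE). The sign turned with the array left out, to 0.67 without EXO-STD replicate 1 and -0.91 without EXO-STD replicate 2. The neighbouring Ltb4r1 read highest on the same arrays, EXO-HP replicate 2 and EXO-STD replicate 1, at a smaller amplitude.

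The deposited log2 table gave smaller differences for Alox5, the Cysltr1 downstream probe and Cysltr2. Its values follow the rank of the mean signal minus the local background, with no surrogate values. Alox5 read 5.24 and 5.37 in EXO-STD and 6.17, 5.38 and 5.87 in EXO-HP. The groups still did not overlap, but EXO-HP replicate 2 exceeded the higher EXO-STD array by a small margin, and the difference was 0.50 ± 0.27 (SE). The Cysltr1 downstream probe read 5.19 and 5.53 against 6.60, 5.64 and 6.46, a difference of 0.87 ± 0.32 (SE). EXO-HP replicate 2 was again the closest to the EXO-STD arrays, by a wider margin than for Alox5. The upstream probe, 5.27 and 2.24 against 5.25, 4.86 and 4.39, differed by 1.08, turned in sign from the processed signal and set by EXO-STD replicate 2.

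In the same table Lta4h read 12.25 and 12.17 in EXO-STD and 11.74, 12.14 and 11.88 in EXO-HP. Every EXO-HP array lay below both EXO-STD arrays, and the difference was -0.29, close to that of the processed signal. Cysltr2 no longer separated the groups, at 6.60 and 6.33 against 6.60, 6.04 and 6.78. Alox5ap, Ltc4s and Ltb4r1 differed by 0.10, 0.32 and 0.04 and Ltb4r2 by -0.31, with overlapping groups. In all, 7 of the 9 probes had the higher mean in EXO-HP in the table, against 45.5% of tested probes. Groups without overlap were higher in EXO-HP for 2 probes and lower for 1, patterns of 7.05% and 6.2% of tested probes. The 2 higher probes, Alox5 and the Cysltr1 downstream probe, passed the filter on dim probes through the EXO-HP arrays alone. The median difference was 0.10 over the 9 probes and -0.02 over the tested probes.

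Other background treatments also gave smaller differences for Alox5 and the Cysltr1 downstream probe. With no background subtraction the differences were 0.54 ± 0.20 (SE) for Alox5 and 0.78 ± 0.22 (SE) for the Cysltr1 downstream probe. With a normexp background correction, which models signal and background together and here adds an offset of 50 that by itself shrinks differences of dim spots, they were 0.30 ± 0.23 (SE) and 0.54 ± 0.23 (SE). The direction was the same under each of these treatments, while the size fell to below 1 on the log2 scale. Lta4h was lower in EXO-HP under all 15 alternative settings, between -0.50 and -0.17.

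**Figure D3:**
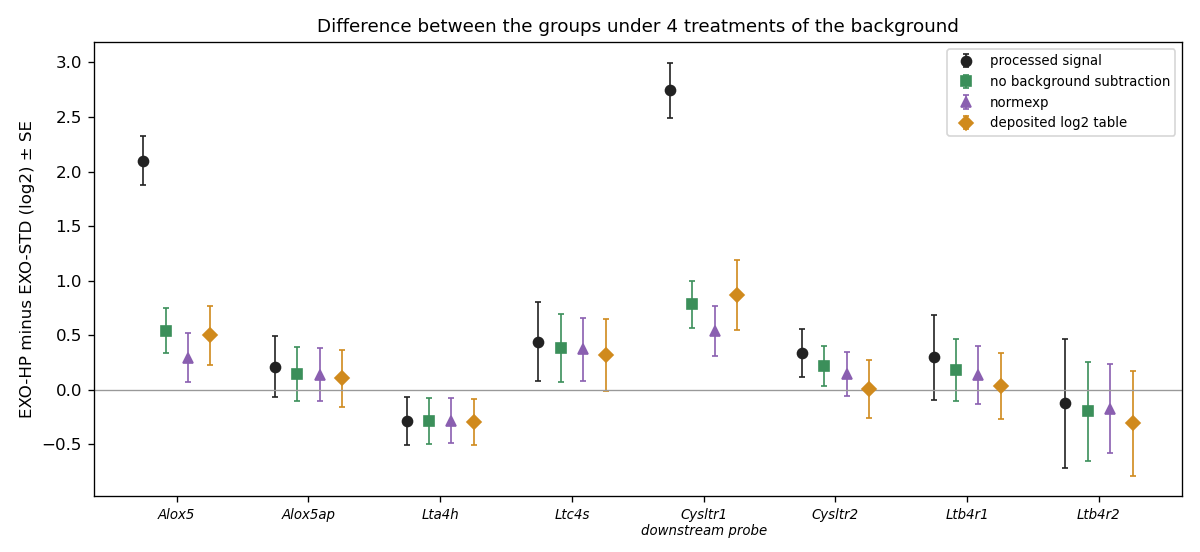
EXO-HP minus EXO-STD difference (log2, ± SE) of the 8 tested leukotriene probes from the processed signal, without background subtraction, after normexp correction and in the deposited table. The processed signal gives 2.10 for Alox5 and 2.74 for the Cysltr1 downstream probe, against 0.30 to 0.87 in the other settings.

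Patterns over the 5 arrays were compared by the root mean square distance between log2 signals centred on their own means, over the tested probes of other genes that carry a RefSeq symbol. With 5 arrays and 31943 probes, close matches are available for most patterns. The Cysltr1 downstream probe, with a spread of 1.36 of its own, was nearest to Mansc4 (0.21), Alox5 (0.36) and Ankrd1 (0.37). The Cysltr1 and Alox5 patterns both contain surrogate values on the EXO-STD arrays, so the distance between them is no measured likeness. Ltb4r2, with a spread of 0.65, was nearest to Ndufs8 (0.09), 4932411N23Rik (0.10) and Ndufb11 (0.10). Ltb4r1 was nearest to Kcnh8, Cym and Dusp15, and Cysltr2 to Celsr3, Acsbg1 and Tdrd6. The nearest to Alox5ap were Tex43, Tnfaip8l1 and Tagln3, to Lta4h Rpl17, Coa5 and Ostf1, and to Ltc4s Zfp423, Tbx5 and Vmn1r217. Alox5 was left out of this search because it was not well above background on all arrays of either group.

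The neighbouring steps of the pathway were followed in a list of 69 genes by function, of which 68 were on the array, 49 were tested and 40 were well above background on all arrays. None passed limma's test at an adjusted p of 0.05, and none of the 31943 tested probes did, with 6 of the 49 genes at an unadjusted p under 0.05 against 5.6% of tested probes. The smallest adjusted p in limma was 0.884 in the list and 0.813 over all probes. The mean was higher in EXO-HP for 33 of the 49 genes and lower for 16, against 62.8% higher over all tested probes. The groups did not overlap for 11 of the higher and 1 of the lower genes, beside 15.1% and 2.76% of all tested probes. Some of those higher genes passed the filter on dim probes through the EXO-HP arrays alone. The median difference was 0.11, and -0.01 in the deposited table, where 22 of the 49 had the higher mean in EXO-HP.

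Arachidonate release, the step that feeds 5-lipoxygenase, had 13 of 16 listed genes tested, with 9 higher and 4 lower in mean and a median of 0.24. The secreted phospholipase Pla2g2f read -5.62 and -5.35 in EXO-STD and -4.85, -3.26 and -3.19 in EXO-HP, a difference of 1.72 ± 0.55 (SE; limma adjusted p = 0.884). Another secreted phospholipase, Pla2g5, read -4.83 and -5.49 against -4.48, -3.06 and -3.61, a difference of 1.45 ± 0.47 (SE; limma adjusted p = 0.884), while its other probe differed by 0.05. In both genes the arrays of the second slide were the highest. Pla2g4d, a cytosolic phospholipase, differed by 1.2 ± 0.47 (SE), and by 0.44 in the deposited table. Within the first slide the differences were 0.64 for Pla2g2f, 0.68 for Pla2g5 and 0.31 for Pla2g4d. Pla2g4a, the cytosolic phospholipase that usually supplies 5-lipoxygenase, was well above background on 1 EXO-HP array alone and was not tested. It is named after its values were seen.

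Of the partners of 5-lipoxygenase and relatives of Ltc4s, 3 of 5 tested genes were higher and 2 lower in mean. Cotl1, an actin-binding protein that binds 5-lipoxygenase, differed by -0.07 ± 0.25 (SE), Dicer1, which also binds it, by 0.36 ± 0.28 and the fatty acid carrier Fabp5 by -0.30 ± 0.30. Mgst2, a microsomal enzyme that can also make LTC4, was named after its values were seen. It was well above background on 0 of 2 EXO-STD and 2 of 3 EXO-HP arrays and read -8.50 and -6.10 against -6.23, -5.02 and -3.47. The groups overlapped, with EXO-HP replicate 1 below EXO-STD replicate 2 (limma adjusted p = 0.909).

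Export and processing of cysteinyl leukotrienes had 6 genes tested, 4 higher and 2 lower in mean. The exporter Abcc1 differed by -0.20 ± 0.34 (SE), and the dipeptidases Dpep1 and Dpep3, of the family that turns LTD4 into LTE4, by 0.25 ± 0.42 and 0.36 ± 0.32. Of 6 tested genes of leukotriene breakdown, 4 were higher and 2 lower. Ptgr1, which oxidises LTB4, read -0.92 and -1.26 in EXO-STD and -1.53, -1.50 and -1.51 in EXO-HP, so that every EXO-HP array lay below both EXO-STD arrays. Its difference was -0.42 ± 0.20 (SE; limma adjusted p = 0.932), and -0.47 in the deposited table. Ptgr2 and Cyp4f13 differed by 0.21 ± 0.19 and 0.23 ± 0.21. The lowest of the 3 Ptgr2 probes differed by -0.25.

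All 4 tested genes of the other lipoxygenases had the higher mean in EXO-HP, against 62.8% of tested probes. Alox12e was the furthest, at 0.61 ± 0.23 (SE; limma adjusted p = 0.890), with Alox12 at 0.12 ± 0.21 and Aloxe3 at 0.12 ± 0.20. Alox12 was -0.18 in the deposited table. In the list of other receptors, the 2 tested were Fpr1, a formyl peptide receptor (-0.02 ± 0.21), and Gpr31b (0.20 ± 0.20). In the prostanoid branch, which uses the same arachidonic acid, 8 of 13 tested genes were higher and 5 lower, with a median of 0.04. Its named genes were the prostaglandin synthases Ptges (0.24 ± 0.20) and Hpgds (0.53 ± 0.31) and the receptor Ptger3 (0.50 ± 0.21). In the deposited table they differed by 0.45, 0.06 and -0.03. Hpgds was well above background on only 1 EXO-STD array. The other probes of Ptges and Ptger3 differed by -0.10 and -0.30.

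**Figure D4:**
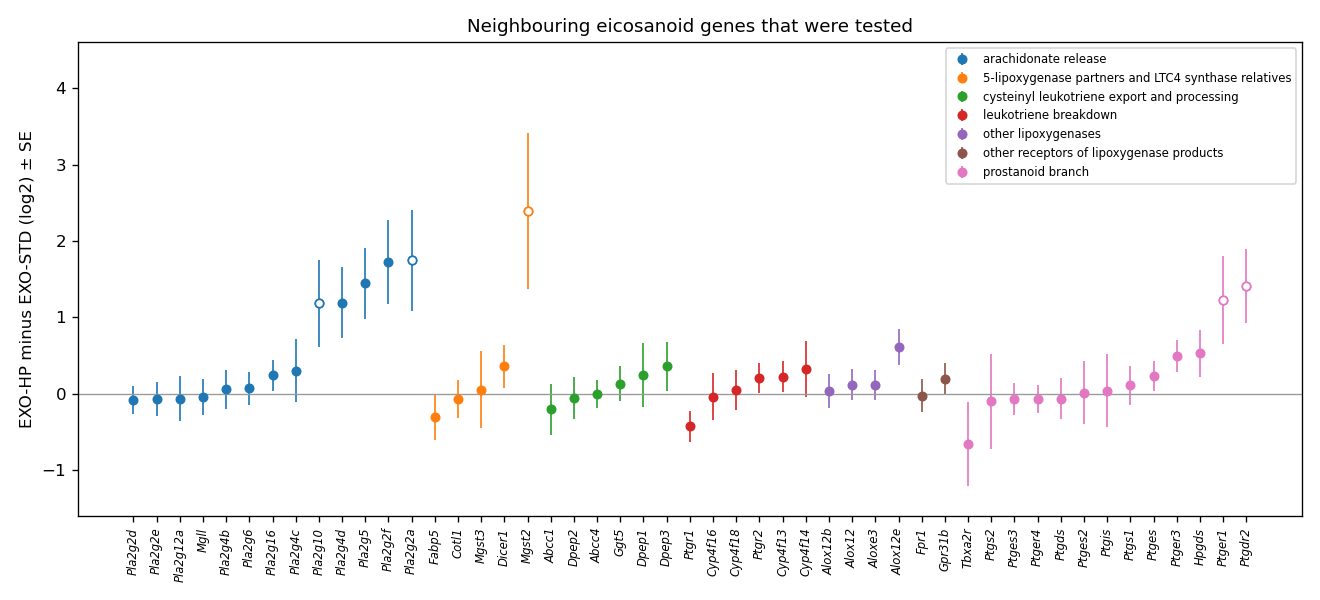
EXO-HP minus EXO-STD difference (normalised log2 signal, ± SE) of the 49 tested pathway genes by functional group, each gene shown by its brightest probe. Open points are genes not well above background on any EXO-STD array. The median over the 49 genes is 0.11, and among the filled points Pla2g2f (1.72) and Pla2g5 (1.45) lie furthest to the higher side. The position of an open point rests on EXO-STD values below detection.

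The samples carried the markers of beta cells. All 10 listed beta cell markers were well above background on all arrays, and Ins1 read 7.47 and 7.42 in EXO-STD and 7.56, 7.59 and 7.61 in EXO-HP, with Ins2 at 7.39 and 7.39 against 7.73, 7.68 and 7.73. Leukotriene synthesis is typical of leukocytes, so 33 leukocyte markers were read too. Of the 33, 19 were well above background on all 5 arrays, against 68.6% of all probes, so the count does not set these markers apart. The 19 were Ptprc, Itgam, Itgb2, Cd68, Adgre1, Csf1r, Cd14, Tyrobp, Fcer1g, Laptm5, Mpo, Elane, Camp, Csf3r, Tpsb2, Ccr3, Cd3e, Cd4 and Cd79a. Lyz2, Fcer1a and Ms4a2 were well above background on none. The summed processed signal of the list was 103254 and 168223 in EXO-STD and 141173, 112954 and 140218 in EXO-HP, with overlapping groups. Most of it came from the neutrophil list, where Csf3r was by far the brightest. On the normalised log2 scale Csf3r read 5.17 and 5.84 in EXO-STD and 5.94, 5.06 and 5.65 in EXO-HP. Elane, the next brightest there, read -1.02 and -1.15 against -0.93, -0.18 and -0.48. The sum and its overlap thus mostly follow the Csf3r probe. Of 26 tested markers 20 were higher and 6 lower in mean, against 62.8% higher over all tested probes. None passed limma's test, with 5 at an unadjusted p under 0.05 against 5.6% of tested probes. In the deposited table, where 45.5% of tested probes were higher, 7 of 11 myeloid and 3 of 6 neutrophil markers were higher. The same held for 3 of 5 mast cell and eosinophil markers and 1 of 4 T and B cell markers. By the processed signal, the EXO-HP arrays lay wholly above the EXO-STD arrays in 8 of the 26 tested markers. They lay wholly below in 0, beside 15.1% above and 2.76% below over all tested probes. The mast cell protease Mcpt4 was well above background on 0 of 2 EXO-STD and 3 of 3 EXO-HP arrays, as was the Cysltr1 downstream probe, and Spi1, Cpa3 and Prg2 on 0 of 2 and 2 of 3, as was Alox5. Of all probes, 1.29% and 5.9% showed these counts. These 4 markers were named after their values were seen and passed the filter on dim probes through EXO-HP alone. In the deposited table Mcpt4, Spi1, Cpa3 and Prg2 differed by 0.55, 0.18, -0.03 and 0.34. On the mast cell and eosinophil list, Tpsb2 and Ccr3, well above background on all arrays, differed by -0.14 and 0.48. The part of the leukocyte markers in the leukotriene signals was not tested. The samples are bulk RNA of the MIN6 line, which does not measure the number of cells and the RNA per cell apart.

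Since the vesicles came from muscle, 7 skeletal muscle markers were read as well. Of the 6 tested, all had the higher mean in EXO-HP, against 62.8% of tested probes, with a median difference of 0.71. None passed limma's test, with 2 at an unadjusted p under 0.05 against 5.6% of tested probes. The deposited table gave a median difference of 0.33, with 5 of the 6 higher, against 45.5% of tested probes. There Ckm was the lower one, at -0.29. The summed processed signal of the list was 1414 and 1533 in EXO-STD and 2465, 2262 and 1727 in EXO-HP, without overlap. This sum is not scaled between arrays and weighs the brightest probes most. Atp2a1, the brightest, read -1.04 and -1.35 in EXO-STD and -0.65, -0.75 and -0.67 in EXO-HP on the normalised log2 scale. Tnnc2, the next, read -2.78 and -2.70 against -1.12, -2.93 and -3.31. Taken singly, the groups overlapped for Acta1, Ckm, Tnnt3 and Tnnc2. Mylpf, a fast muscle myosin light chain named after its values were seen, was well above background on 0 of 2 EXO-STD and 3 of 3 EXO-HP arrays (limma adjusted p = 0.884). That pattern was seen in 1.29% of all probes, and Mylpf passed the filter on dim probes through EXO-HP alone. Its difference was 1.10 by the processed signal and 0.22 in the deposited table. Of 4 other islet hormones, all well above background on all arrays, 3 were higher and 1 lower in mean and none passed. The part of these markers in the leukotriene signals was not tested.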

How the data were processed

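Per the file headers, spot intensity was extracted with Feature Extraction 10.7.3.1; limma and version 9.1 of Agilent Feature Extraction stand in the submitters' processing notes. The processed intensity is background-subtracted and detrended, with surrogates for spots not above background. The deposited table holds log2 values whose 5 columns share 1 distribution; all columns matched samples (0 unmatched). The authors' steps behind it are not given in the sources used here.

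Here, outlier spots were left out, log2 of the processed intensity was taken with no pseudocount, spots of a probe were averaged, and the array's 75th percentile was subtracted. Tested probes (31943) needed 2 or more arrays of 1 group well above background; 110 had no usable spot and 7376 were dim. limma 3.58.1 in R 4.3.3 was fitted over them with Benjamini-Hochberg adjustment (threshold 0.05), after being tested on simulated data. The smallest two-sided p of an exact permutation test here is 0.2. Symbols of 26055 probes came from RefSeq GRCm38.p6.

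The members and lists were chosen with earlier results of these data known. Named were all member probes; in each pathway group up to 3 genes with the smallest unadjusted p among those well above background on at least 1 array of each group; the 3 genes nearest in pattern to each member probe well above background on all arrays of a group; and Ins1, Ins2 and leukocyte markers well above background on all arrays. One listed marker is not reported here. Alternatives were other scalings, background corrections and filters, outlier spots kept, the slide and the replicate number as blocks, and each array left out.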

Additional observations from a re-analysis of the deposited data

How the results depend on the processing

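No probe passed the threshold under any alternative except without EXO-STD replicate 1, when Btbd10, LOC100048394 and Polr1e did, so leaving out an array gave 0 to 3; unadjusted counts ran from 843 (slide as a block) to 3411 (without EXO-HP replicate 1), against 1788. Of the 8 tested member probes 6 were higher; leaving out an array gave 5 to 7, and the filter for all 5 arrays left 3 of 5. Same-numbered replicates did not deviate together (r = 0.02 and -0.06 over 31943 probes); the replicate block called 0 probes, with 7 of 8 members higher. Median scaling put the median difference of all probes at -0.10, against 0.07. Of 298 values of 20 pathway genes, 274 kept their sign, 94 of them over 1.5 times larger or smaller, and 24 reversed; the cause was not tested. In the deposited table these were Alox12 -0.18, Cotl1 0.035, Dpep3 -0.010 and Ptger3 -0.030; with quantile normalisation Alox12 -0.20, Dpep3 -0.0074 and Ptger3 -0.040; with median scaling Alox12 -0.057 and Aloxe3 -0.056. Cotl1 was 0.012 both without background subtraction and with normexp. The slide block gave Abcc1 0.11, Aloxe3 -0.015, Dpep1 -0.31 and Fpr1 0.019, and the replicate block Cotl1 0.027 and Fpr1 0.089. Leaving out an array in turn gave -0.36 to 0.094 for Abcc1, -0.0074 to 0.25 for Alox12, -0.25 to 0.027 for Cotl1, -0.14 to 0.53 for Dpep1 and -0.12 to 0.089 for Fpr1. Signal over background limits Alox5 and Cysltr1, and 2 against 3 arrays limit all genes.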
